A study of Mus musculus with 3 samples.

Results

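The cells described here are C1q and Apoe macrophages of 3 whole TH-MYCN mouse neuroblastomas, profiled by droplet single-cell RNA sequencing that counts transcripts from their 3′ ends. They were chosen by raw counts of unique molecular identifiers (UMIs, 1 for each captured transcript), among the barcodes that the authors kept in their normalized tables. A cell had to hold 2 or more of the 5 myeloid genes Csf1r, Tyrobp, Fcer1g, Ctss and Cd68 and fewer than 3 of the 5 neutrophil genes Csf3r, Cxcr2, Il1r2, Retnlg and G0s2. It also had to hold at least 3 UMIs of C1qa, C1qb and C1qc together, making at least 0.3% of its UMIs. There were 200 such cells among 5650 kept cells, 101 in tumor 1, 41 in tumor 2 and 58 in tumor 3, and they are called C1q macrophages here.

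Each tumor came from a different mouse, aged 62, 79 and 63 days for tumors 1, 2 and 3, and all mice were heterozygous for the transgene. In this model the promoter of tyrosine hydroxylase drives human MYCN in the sympathetic lineage, from which the tumors grow. The tumors form a single untreated group with no normal tissue beside it, so a difference between tumors cannot be told apart from one of age or animal. The tables hold 17319241, 21829496 and 20041044 UMIs over 3257, 4327 and 6038 barcodes, of which 1914, 1221 and 2515 were kept.

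C1q is the recognition protein of the classical complement pathway, which marks immune complexes, microbes and dying cells for clearance. Most complement proteins come from the liver, whereas C1q is made chiefly by tissue macrophages and dendritic cells. Macrophages of tissues also engulf dead cells, break them down in lysosomes, recycle iron from heme and export cholesterol, for which apolipoprotein E (Apoe) is a carrier.

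C1q macrophages made up 5.28% of the kept cells of tumor 1 (95% exact binomial interval 4.32 to 6.38), 3.36% in tumor 2 (2.42 to 4.53) and 2.31% in tumor 3 (1.76 to 2.97). The mean was 3.65% ± 1.51 (SD, n = 3), and it was 2.83% without tumor 1. Tumor 1 had the smallest share among mononuclear phagocytes, meaning all kept cells that passed the myeloid and neutrophil criteria: there C1q macrophages were 11.5% (101 of 876), 39.0% (41 of 105) and 31.5% (58 of 184). The share differed by depth as well. Among kept cells with 3000 or more UMIs they made up 5.25%, 12.7% and 18.7%, and among cells under 3000 UMIs 5.33%, 1.89% and 0.906%. Tumor 1 thus held a like share at either depth, while in tumors 2 and 3 the deeper cells were richer in C1q macrophages, with intervals that did not overlap.

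**Figure D1:**
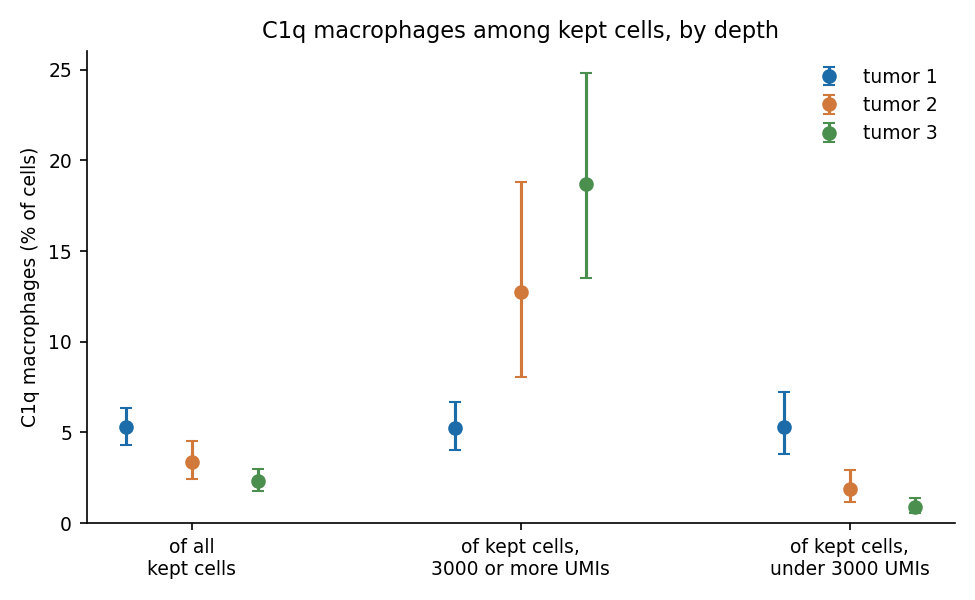
Share of kept cells that were C1q macrophages (percent, vertical axis) in each of 3 tumors, over all kept cells and over those with 3000 or more or under 3000 UMIs. Points are shares and bars 95% exact binomial intervals, and the deep cells of tumor 3 reach 18.7%.

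The C1q macrophages had a higher median depth than all kept cells of the same tumor. Their median was 11237, 3515 and 5439 UMIs, against 4282.5, 1594 and 1816 for all kept cells, and their median number of detected genes was 2784, 1252 and 1962. In tumor 1 their lower quartile was the smaller, at 967 against 1641.5 UMIs. The criteria ask for several detected genes and UMIs, which deeper cells meet more readily. In tumors 1, 2 and 3, 62, 21 and 37 C1q macrophages had 3000 or more UMIs, which is 61.4%, 51.2% and 63.8% of them. The deep cells had medians of 15923, 8348 and 6956 UMIs, and the shallow ones 819, 1732.5 and 1553. In tumor 1, 27 of them had under 1000 UMIs. The shallowest kept cell of any kind had 500, 1165 and 1170 UMIs in tumors 1, 2 and 3, so such cells could be counted in tumor 1 alone. The shallow cells of tumor 1 carried little mitochondrial RNA, with a median of 0.348% of UMIs against 3.27% and 3.30% in tumors 2 and 3, while the deep cells had 4.62%, 6.15% and 4.91%.

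The C1q criterion drew a line through a continuous range. The lowest C1q shares inside it were 0.322%, 0.310% and 0.304% of a cell's UMIs in tumors 1, 2 and 3, and the highest outside it 0.298%, 0.285% and 0.293%. Another 30, 13 and 18 mononuclear phagocytes held at least 3 C1q UMIs yet fell short of 0.3%. Most members lay well above the line, with median shares of 1.42%, 0.694% and 1.04% and median C1q counts of 89, 21 and 46.5 UMIs. These values chose the cells and are given as a description.

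The split of C1q transcripts over its chain genes, which the selection did not use, was similar in each tumor and varied least for C1qb. The A, B and C chains of the protein are joined into subunits in equal numbers. C1qb supplied 43.2%, 42.8% and 41.9% of the C1q UMIs in tumors 1, 2 and 3, a mean of 42.6% ± 0.710 (SD, n = 3). C1qa supplied 32.8%, 30.7% and 34.8%, a mean of 32.8% ± 2.02, and C1qc 23.9%, 26.5% and 23.4%, a mean of 24.6% ± 1.66. For C1qa and C1qc the 95% exact intervals of tumors 2 and 3 did not overlap. In shallow cells the means were 42.0% for C1qb, 31.9% for C1qa and 26.0% for C1qc, each within 2 points of the deep cells. All 3 chain genes were detected in 95, 39 and 56 C1q macrophages, which is 94.1%, 95.1% and 96.6%, though the C1q criterion itself favors cells with many C1q UMIs. As levels, C1qa stood at 4232, 3566 and 4277 CPM (counts per 1e6 UMIs of the summed cells), C1qb at 5577, 4961 and 5147 CPM and C1qc at 3087, 3073 and 2875 CPM. The few C1q UMIs in tumor-like cells, defined as kept cells with 2 or more neuroblast genes and fewer than 2 of the myeloid genes, held C1qb at 28.9% of 38 (95% exact interval 15.4 to 45.9), 51.9% of 79 (40.4 to 63.3) and 42.0% of 369 UMIs (36.9 to 47.2) in tumors 1, 2 and 3, intervals that all include the mean of the C1q macrophages.

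The chain genes lie next to each other on the minus strand of chromosome 4 in GRCm38, with C1qb at chr4:136880129-136886187, C1qc at chr4:136889804-136893065 and C1qa at chr4:136895917-136898803. Their promoters are shown because C1q defines the cells, and those of Apoe and Trem2 because they stood out among the genes outside the rule. The sequences are from RefSeq (GRCm38.p6), run from 250 bases before to 50 after the start that RefSeq gives, which for C1qb and C1qc is not the start of the GENCODE spans above, and lie at chr4:136886151-136886450 (minus) for C1qb, chr4:136892865-136893164 (minus) for C1qc, chr7:19699139-19699438 (minus) for the first of 3 Apoe windows listed and chr17:48346151-48346450 (plus) for Trem2. The tables had no entry for C1qa, Vcam1 and Slc40a1. Capitals mark GAGGAA or its reverse complement TTCCTC, a core bound by PU.1, the factor that defines myeloid cells, and TGCTGA or TCAGCA, part of the site of Maf factors. GAGGAA on either strand was present in 28.3% of 32851 promoters and TGCTGA in 19.5%, and a match is a description of the letters alone.
C1qb: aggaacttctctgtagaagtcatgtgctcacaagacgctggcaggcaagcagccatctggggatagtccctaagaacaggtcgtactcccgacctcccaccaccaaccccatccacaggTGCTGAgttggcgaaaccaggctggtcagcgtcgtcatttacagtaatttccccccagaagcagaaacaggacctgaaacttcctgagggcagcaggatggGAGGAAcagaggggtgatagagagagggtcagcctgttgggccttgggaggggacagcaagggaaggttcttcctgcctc
C1qc: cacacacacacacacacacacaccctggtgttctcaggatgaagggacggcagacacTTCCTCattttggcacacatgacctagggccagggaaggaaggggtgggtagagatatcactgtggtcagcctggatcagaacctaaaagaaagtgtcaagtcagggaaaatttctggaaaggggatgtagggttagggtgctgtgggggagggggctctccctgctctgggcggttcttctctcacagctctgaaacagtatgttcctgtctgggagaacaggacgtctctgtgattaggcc
Apoe: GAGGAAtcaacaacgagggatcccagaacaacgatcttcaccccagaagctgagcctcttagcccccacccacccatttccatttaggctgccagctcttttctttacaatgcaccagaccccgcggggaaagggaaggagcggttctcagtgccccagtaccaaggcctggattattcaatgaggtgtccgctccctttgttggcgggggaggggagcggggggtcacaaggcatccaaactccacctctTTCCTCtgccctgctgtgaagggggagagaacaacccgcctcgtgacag
Trem2: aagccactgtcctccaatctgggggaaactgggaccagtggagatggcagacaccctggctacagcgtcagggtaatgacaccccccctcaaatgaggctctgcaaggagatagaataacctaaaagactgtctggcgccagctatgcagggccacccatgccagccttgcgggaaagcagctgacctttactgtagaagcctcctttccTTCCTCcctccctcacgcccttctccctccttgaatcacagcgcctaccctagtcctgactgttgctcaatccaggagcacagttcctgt

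The main comparison set C1q macrophages against the other mononuclear phagocytes of the same tumors, to describe what sets them apart beyond C1q. They carried far more RNA of Apoe, and more of 9 lysosomal genes, 4 iron and heme genes and several secreted proteins and surface receptors, while Il1b and Clec4e were among the lower genes. Cells with RNA of lymphocytes or tumor cells were left out on both sides, leaving 87, 28 and 28 C1q macrophages and 558, 31 and 53 others, each summed per tumor. Of 2237 genes tested, 53 were higher (2.37%) and 14 lower (0.626%) in C1q macrophages at an adjusted p under 0.05 by edgeR's quasi-likelihood test. Without adjustment of p the same threshold gave 162 (7.24%) and 196 (8.76%), and DESeq2 called 83 higher (3.71%) and 34 lower (1.52%). All 53 genes had their lowest C1q sum above the highest sum of the others, as 218 of the genes tested did (9.75%), and all 14 the reverse, as 285 did (12.7%). With each tumor as its own block, edgeR called 188 genes higher (8.4%) and 225 lower (10.1%), including all 53 and all 14.

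The counts rested on all 3 tumors. Without tumors 1, 2 and 3 the filter on low counts passed 2156, 6152 and 6076 genes, against 2237 with all, so the genes tested changed as well. Without tumor 1 there were 30 genes higher and 10 lower, 27 and 2 of them from the full set. Without tumor 3 there were 20 and 3, 13 and 0 of them from the full set. Without tumor 2 edgeR called 5 genes higher and 0 lower, beside 240 and 241 when p was not adjusted. Those 5 were Apoe, Ms4a7, Trem2, Ccl8 and Il18bp. All but Trem2 were called whichever tumor was left out, and Trem2 had an adjusted p of 0.0668 without tumor 3 in edgeR's quasi-likelihood test with Benjamini-Hochberg adjustment, its log2 fold change with all tumors being 4.18 ± 0.50 (SE) (3 of 3 tumors).

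The 4 marker genes that the selection did not use were all called higher, so the cells carried the markers of their name. Those markers were chosen with earlier results of these data known, so this checks the name and is no independent test. Apoe stood at 11022, 25436 and 8975 CPM in the C1q macrophages of tumors 1, 2 and 3 and at 307, 649.7 and 723 CPM in the other mononuclear phagocytes. Its log2 fold change was 4.78 ± 0.51 (SE), with an adjusted p of 0.0111 by edgeR's quasi-likelihood test with Benjamini-Hochberg adjustment (3 of 3 tumors). Tumor 2 was the highest, and the lowest C1q sum lay more than 10-fold above the highest of the others. By UMI counts, which tally transcript ends and do not grow with gene length, Apoe ranked 3 of all genes by mean CPM over the C1q macrophages, after Gm42418 and Malat1. In tumor 1, at 11229 CPM over all C1q macrophages, it also lay below Tmsb4x, Ftl1, Lyz2 and Fth1, and in tumor 3 below Tmsb4x, whereas in tumor 2 it ranked first. Vcam1, an adhesion molecule for white cells that also marks iron-recycling macrophages of the spleen, stood at 797, 1947 and 369.9 CPM against 29.7, 9.15 and 39.4 CPM. Its log2 fold change was 5.17 ± 0.73 (SE), with an adjusted p of 0.0133 by edgeR's quasi-likelihood test with Benjamini-Hochberg adjustment (3 of 3 tumors), and 0.0681 without tumor 2. Among the cells tested, tumor 2 was high and tumor 3 low here too. Ms4a7, a membrane protein of macrophages, was at 797, 514 and 1085 CPM against 32.7, 64.1 and 78.8 CPM, a log2 fold change of 3.90 ± 0.45 (SE). Cd63, a tetraspanin of lysosomes and late endosomes, was at 1253, 1129 and 666 CPM against 112, 54.9 and 171 CPM, a log2 fold change of 3.16 ± 0.45 (SE). Ms4a7 was lowest in tumor 2 and Cd63 in tumor 3. Cd63 missed the threshold without tumor 2, at an adjusted p of 0.104 in edgeR's quasi-likelihood test with Benjamini-Hochberg adjustment.

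**Figure D2:**
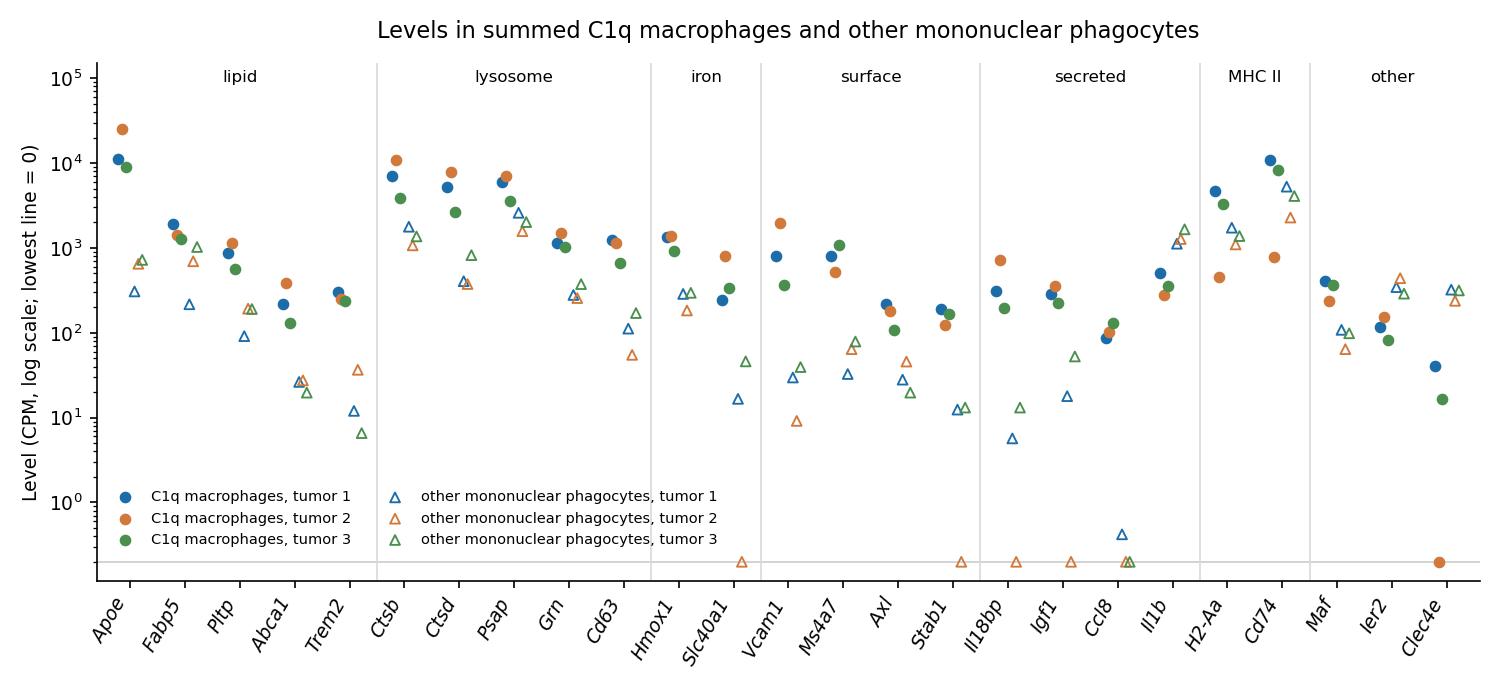
Level of named genes (CPM, log axis, lowest line for 0) in the summed C1q macrophages (filled circles) and other mononuclear phagocytes (open triangles) of each tumor, grouped by role. Apoe stands at 8975 to 25436 CPM in C1q macrophages and at 307 to 723 CPM in the other cells.

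Genes that handle lipid were called beside Apoe. Of 14 tested, 5 were higher and 0 lower (8 and 1 when p was not adjusted, 6 and 0 by DESeq2, 11 and 1 with the block, the lower being Fabp4). Over all genes tested 2.37% were higher (7.24%, 3.71% and 8.4% in the same order) and 0.626% lower (8.76%, 1.52% and 10.1%). The median log2 fold change of the list was 1.33, against -0.11 over all genes tested. Trem2, a receptor for lipids and lipoproteins through which macrophages sense cell debris, was at 306, 253 and 238 CPM against 12.01, 36.6 and 6.57 CPM. Its log2 fold change was 4.18 ± 0.50 (SE) with an adjusted p of 0.0111 by edgeR's quasi-likelihood test with Benjamini-Hochberg adjustment (3 of 3 tumors). In shallow cells its level differed widely over the tumors, at 834, 29.3 and 172 CPM from 38, 1 and 6 UMIs. Pltp, which moves phospholipid between lipoproteins, was at 865, 1144 and 567 CPM against 91.2, 192 and 190.5 CPM, a log2 fold change of 2.51 ± 0.41 (SE). Abca1, the pump that loads cholesterol onto apolipoproteins, was at 220.2, 384 and 132 CPM against 26.3, 27.5 and 19.7 CPM, a log2 fold change of 3.26 ± 0.47 (SE). Among the cells tested, both followed the order of Apoe over the tumors, with tumor 2 high and tumor 3 low. Over all C1q macrophages Apoe was lowest in tumor 1, at 11229 CPM against 14253 CPM in tumor 3. Nceh1, which frees cholesterol from its stored esters, had a log2 fold change of 1.94 ± 0.38 (SE). Fabp5, a fatty acid carrier of the cytosol, was at 1901, 1426 and 1274 CPM against 217, 695 and 1025 CPM, a log2 fold change of 1.30 ± 0.51 (SE), and was not called. The blocked fit called it (adjusted p = 0.0265, edgeR's quasi-likelihood test with Benjamini-Hochberg, 3 of 3 tumors). Of the 5 genes called, Apoe, Pltp and Trem2 stayed past the threshold without tumor 1, Apoe and Trem2 without tumor 2, and Apoe and Abca1 without tumor 3.

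Receptors for dead cells were a shorter list, with 6 of 16 genes passing the filter on low counts. Axl and Stab1 were called higher (4 of 6 when p was not adjusted, 3 by DESeq2, 4 with the block), beside 2.37% of all genes (7.24%, 3.71% and 8.4%), and the median log2 fold change was 1.59 against -0.11. Stab1, a scavenger receptor that binds phosphatidylserine on dying cells, was at 189, 123 and 164 CPM against 12.4, 0 and 13.1 CPM, a log2 fold change of 3.82 ± 0.50 (SE). Axl, a receptor kinase bridged to dying cells by Gas6, was at 219, 181 and 107 CPM against 28.02, 45.8 and 19.7 CPM, a log2 fold change of 2.55 ± 0.44 (SE). Stab1 stayed past the threshold without tumor 1, and neither gene did without tumor 2 or without tumor 3. Mrc1, the mannose receptor, stood at 54.03, 145 and 291 CPM in all C1q macrophages of tumors 1, 2 and 3, with tumor 1 the lowest.

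Lysosomal genes formed the largest group of calls among the lists. Of 22 tested, 9 were higher (17 when p was not adjusted, 13 by DESeq2, 18 with the block), beside 2.37% of all genes (7.24%, 3.71% and 8.4%), and the median log2 fold change was 1.40 against -0.11 over all genes tested. Their adjusted p values ran up to 0.0240 for Hexa in edgeR's quasi-likelihood test with Benjamini-Hochberg adjustment, with the same direction in 3 of 3 tumors for each. Ctsd, the main aspartic protease of lysosomes, was at 5209, 7890.0 and 2671 CPM against 405, 375 and 821 CPM, a log2 fold change of 3.31 ± 0.48 (SE). Ctsb, a cysteine protease, was at 6972, 10807 and 3888 CPM against 1776, 1071 and 1366 CPM, a log2 fold change of 2.35 ± 0.40 (SE). Both were highest in tumor 2 and lowest in tumor 3, where the C1q macrophages still lay above the other cells of any tumor. Lgmn, which cleaves after asparagine and activates cathepsins, was at 2045, 1506 and 1299 CPM against 428, 284 and 342 CPM, a log2 fold change of 2.19 ± 0.32 (SE). Hexa, a lysosomal enzyme of ganglioside breakdown, was at 715, 695 and 715 CPM against 230.2, 109.8 and 204 CPM, a log2 fold change of 1.91 ± 0.33 (SE). Hexa was almost level over the C1q macrophages of the tumors, whereas Lgmn was lowest in tumor 3. Grn, whose product progranulin supports lysosomal enzymes, had a log2 fold change of 1.998 ± 0.28 (SE). Acp5, an acid phosphatase, had 1.99 ± 0.26 (SE), and Ctsc, which activates serine proteases of granules, had 1.74 ± 0.26 (SE). Cd63 was called as well.

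Gpnmb, a membrane glycoprotein of lysosomes in lipid-laden macrophages, was at 360.2, 528 and 98.6 CPM against 15.6, 0 and 72.3 CPM, a log2 fold change of 3.69 ± 0.92 (SE). It missed the threshold and was called by DESeq2 and with the block (adjusted p = 0.00108, edgeR's quasi-likelihood test with Benjamini-Hochberg, 3 of 3 tumors). In tumor 3 it was at its lowest, near the level of that tumor's other cells. Psap, the precursor of the saposins that present lipids to lysosomal enzymes, was at 5996, 6999.6 and 3551 CPM against 2592, 1574 and 2016 CPM and was not called by the unblocked edgeR fit, but was by DESeq2 and with the block. All 9 lysosomal genes were called without tumor 1, and Ctsb, Ctsd and Cd63 without tumor 3, whereas all 9 were lost without tumor 2.

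Of 11 iron and heme genes tested, 4 were higher (9 when p was not adjusted, 4 by DESeq2, 8 with the block), beside 2.37% of all genes (7.24%, 3.71% and 8.4%), with a median log2 fold change of 0.97 against -0.11. Slc40a1, or ferroportin, the exporter of iron from cells, was at 243, 803 and 337 CPM against 16.6, 0 and 45.98 CPM. Its log2 fold change was 4.46 ± 0.76 (SE), with an adjusted p of 0.0239 by edgeR's quasi-likelihood test with Benjamini-Hochberg adjustment (3 of 3 tumors). Tumor 2 held the most of it in C1q macrophages and no UMI in the other cells. Hmox1, which opens the heme ring and frees its iron, was at 1329.5, 1389.8 and 929 CPM against 287, 183 and 296 CPM, a log2 fold change of 2.23 ± 0.32 (SE). Blvrb, which reduces biliverdin made from heme, was at 281, 275 and 288 CPM against 103, 119 and 125 CPM, a log2 fold change of 1.29 ± 0.26 (SE). Ncoa4, which carries ferritin to lysosomes, had a log2 fold change of 1.71 ± 0.35 (SE). The ferritin chains, which store iron, were plentiful on both sides and were not called, though they were higher with the block and when no cells were left out. Ftl1, the light chain, was at 16654, 13442 and 12887 CPM against 7527, 9893 and 7422 CPM, and Fth1, the heavy chain, at 14371, 10619 and 13348 CPM against 7379.7, 7284 and 11691 CPM. Hmox1 and Slc40a1 remained past the threshold without tumor 1, and all 4 calls were lost without tumor 2 or without tumor 3.

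Complement genes other than C1q were sparse. Of 18 measured, 5 could be tested and 2 were higher and 0 lower (2 and 2 when p was not adjusted, 2 and 0 by DESeq2, 2 and 2 with the block), beside 2.37% and 0.626% of all genes (7.24% and 8.76%, 3.71% and 1.52%, 8.4% and 10.1%), with a median log2 fold change of 0.39. C3ar1, the receptor of the C3a fragment, was at 141, 86.9 and 148 CPM against 10.95, 9.15 and 0 CPM, a log2 fold change of 3.75 ± 0.59 (SE). Cfp, or properdin, which stabilizes the C3 convertase of the alternative pathway, was at 276, 333 and 214 CPM against 63.2, 91.5 and 52.5 CPM, a log2 fold change of 2.02 ± 0.34 (SE). Both calls were lost once any tumor was left out. The blocked fit also called C3 and Itgam lower in C1q macrophages. Vsig4, a complement receptor of resident macrophages, and Cfd, the factor D protease, had no UMI in the C1q macrophages of any tumor.

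Among secreted proteins, C1q macrophages had more RNA of a few chemokines and of Igf1 and Il18bp, and less of Il1b. Ccl8, a chemokine made by tissue-resident macrophages, was at 87.2, 101 and 132 CPM against 0.421, 0 and 0 CPM, with 2 UMIs in all the other mononuclear phagocytes. The ratio of the pooled levels was 235, with an exact 95% interval of 63.4 to 1962. Its adjusted p was 0.0111 by edgeR's quasi-likelihood test with Benjamini-Hochberg adjustment, with a log2 fold change of 7.62 ± 0.77 (SE) in 3 of 3 tumors. Il18bp, a soluble protein that binds and blocks interleukin 18, was at 309, 724 and 197 CPM against 5.69, 0 and 13.1 CPM. Its log2 fold change was 5.998 ± 0.74 (SE), with an adjusted p of 0.0111 by edgeR's quasi-likelihood test with Benjamini-Hochberg adjustment (3 of 3 tumors), and tumor 2 was again the highest. Cxcl14, a chemokine of epithelia and macrophages, was at 116, 275 and 139.7 CPM against 5.48, 18.3 and 19.7 CPM, a log2 fold change of 4.23 ± 0.64 (SE). Cxcl16, a membrane-bound chemokine for T cells that carry Cxcr6, was at 418, 282 and 436 CPM against 68.04, 45.8 and 98.5 CPM, a log2 fold change of 2.40 ± 0.36 (SE). The chemokines called were 3 of 9 ligands tested, all higher (3 higher and 2 lower when p was not adjusted, 3 and 1 by DESeq2, 3 and 2 with the block), beside 2.37% and 0.626% of all genes (7.24% and 8.76%, 3.71% and 1.52%, 8.4% and 10.1%), with a median log2 fold change of 0.02. The blocked fit called Ccl9 and Cxcl2 lower. All 3 chemokines were called without tumor 1, and Ccl8 alone without tumor 2 or without tumor 3.

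Of 5 cytokines and growth factors tested, Igf1 was higher and Il1b lower, in edgeR with or without the block and in DESeq2, beside 2.37% and 0.626% of all genes (8.4% and 10.1% with the block, 3.71% and 1.52% by DESeq2), and the median log2 fold change was 0.08. Igf1, a growth factor made by tissue macrophages, was at 283, 355 and 222 CPM against 17.9, 0 and 52.5 CPM, a log2 fold change of 3.66 ± 0.64 (SE). Il1b, an inflammatory cytokine of activated monocytes, was at 508, 282 and 353 CPM against 1120.5, 1272 and 1655 CPM, and fell by 1.79 ± 0.32 (SE) on the log2 scale. The comparator also held more RNA of neutrophil genes, given with the lower genes below, whose part in this difference was not tested. The highest C1q sum of Il1b, in tumor 1, lay more than 2-fold below the lowest of the others. The call of Igf1 was lost when any tumor was left out, and that of Il1b without tumor 2 or tumor 3. Spp1, or osteopontin, varied over the C1q macrophages, at 257, 180.5 and 663 CPM in tumors 1, 2 and 3, with tumor 3 the highest. Nos2 and Ido1, enzymes of inflammatory macrophages, had no UMI in them.

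Several genes outside the lists were also among the top calls. Syngr1, a synaptic vesicle protein also found outside neurons, was at 188, 152 and 82.2 CPM against 4.42, 9.15 and 13.1 CPM, a log2 fold change of 4.61 ± 0.59 (SE). Abcc3, an exporter of conjugated organic anions, was at 154, 188 and 139.7 CPM against 4.63, 9.15 and 39.4 CPM, a log2 fold change of 3.91 ± 0.75 (SE). Selenop, the plasma carrier of selenium, was at 1208, 3076 and 1307 CPM against 183, 156 and 125 CPM, a log2 fold change of 3.54 ± 0.44 (SE). Tumor 2 held the most Selenop and Abcc3, as it did Apoe. Pld3, an exonuclease of lysosomes, had a log2 fold change of 3.49 ± 0.41 (SE).

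Antigen presentation genes differed over the tumors, and their direction between the classes was not the same in all. Of 6 MHC class II genes tested, 6 had a positive log2 fold change, with a median of 0.99, and 0 were called by edgeR (0 when p was not adjusted, 0 by DESeq2, 0 with the block). H2-Aa, the alpha chain of I-A, was at 4715, 449 and 3279 CPM against 1731, 1098 and 1379 CPM. Cd74, the invariant chain that guards the groove of these molecules, was at 10793, 782 and 8285 CPM against 5269, 2279 and 4085 CPM. In tumors 1 and 3 the C1q macrophages held more of both than the others, and in tumor 2 less. Over all C1q macrophages H2-Aa stood at 4806, 629 and 3132 CPM and Cd74 at 10741, 1536 and 7704 CPM, so tumor 2 lay several-fold below the other tumors. Among 5 genes of checkpoints and costimulation 0 were called by edgeR (1 when p was not adjusted, 0 by DESeq2), and Sirpa, which receives the signal of Cd47 on other cells, was higher with the block. Over all genes 7.24% were higher when p was not adjusted and 8.4% with the block.

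Of 4 Fc receptors tested, which bind the tails of antibodies, 0 were called by edgeR (2 when p was not adjusted, 0 by DESeq2), with a median log2 fold change of 0.91. With the block Fcgr2b, Fcgr3 and Fcgrt were higher. Over all genes 7.24% were higher and 8.76% lower when p was not adjusted, and 8.4% and 10.1% with the block. Fcgr3, an activating receptor, was at 451, 347 and 378 CPM against 232, 156 and 98.5 CPM. Of 8 genes of pattern recognition and scavenging, 0 were called by edgeR (2 higher and 1 lower when p was not adjusted, 0 by DESeq2), with a median of -0.31, and the blocked fit called Cd5l and Clec4n higher and Cd14 lower. Cd5l, a secreted scavenger protein of red pulp and liver macrophages, was at 276, 1998 and 255 CPM against 2.32, 18.3 and 105 CPM. Its log2 fold change was 4.80 ± 1.47 (SE), with an adjusted p of 0.131 in edgeR's quasi-likelihood test with Benjamini-Hochberg adjustment and 0.000927 in its blocked fit (3 of 3 tumors). Tumor 2 held by far the most, and in tumor 3 the gap between the classes was the smallest. Lyve1, a hyaluronan receptor of perivascular macrophages, had no UMI in the C1q macrophages of any tumor. Of 4 chemokine receptors 0 were called by edgeR (0 when p was not adjusted, 0 by DESeq2), and Ccr2 was lower with the block. Cx3cr1, the receptor for the neuronal chemokine fractalkine, stood at 442, 96.8 and 278 CPM in all C1q macrophages, lowest in tumor 2.

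Of 18 transcription factors tested, Maf was called higher and none lower (3 higher and 5 lower when p was not adjusted, 2 and 2 by DESeq2, 5 and 6 with the block), beside 2.37% and 0.626% of all genes (7.24% and 8.76%, 3.71% and 1.52%, 8.4% and 10.1%). Of the 18, 12 had a negative log2 fold change, and the median was -0.24. Maf, a factor of resident macrophages, was at 403, 239 and 362 CPM against 108, 64.1 and 98.5 CPM (log2 fold change 1.83 ± 0.35 (SE), 3 of 3 tumors). The call was lost once any tumor was left out. The calls of the blocked fit included Cebpa, Irf8 and Spic higher and Cebpb, Id3, Klf2, Klf4, Nr4a1 and Spi1 lower. Cebpb, a factor of inflammatory gene expression, was at 582, 101 and 312 CPM against 2282, 256 and 1110.0 CPM.

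Of 15 immediate early and stress genes tested, 14 had a negative log2 fold change, 1 was called lower (3 when p was not adjusted, 2 by DESeq2, 6 with the block), beside 0.626% of all genes (8.76%, 1.52% and 10.1%), and the median was -0.61 against -0.11 over all genes. Ier2, induced within minutes of a stimulus, was at 117, 152 and 82.2 CPM against 345, 439 and 289 CPM and fell by 1.60 ± 0.33 (SE) on the log2 scale. The call was lost when any tumor was left out. Of 4 interferon-stimulated genes 0 were called by edgeR (0 when p was not adjusted, 0 by DESeq2), with a median of -0.30, and Ifitm3 was lower with the block. Within C1q macrophages some genes of the interferon list varied by tumor. Ifi27l2a, an interferon-induced mitochondrial protein, stood at 346, 8.80 and 442 CPM and Isg15, a ubiquitin-like modifier, at 24.01, 8.80 and 271 CPM. Tumor 2 was low in both and tumor 3 the highest.

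Of 7 cell cycle genes 0 were called by edgeR (1 when p was not adjusted, 0 by DESeq2), with a median of 0.48, and Mki67 was higher with the block, beside 7.24% of all genes without adjustment and 8.4% with the block. Mki67, a nuclear protein of dividing cells, stood at 61.7, 330.1 and 177 CPM in all C1q macrophages, and Ube2c, a ubiquitin enzyme of mitosis, at 16.3, 158 and 358 CPM. Tumor 1 held the least of both. It also held the least RNA of tumor cells, at 71.2 CPM over 14 tumor genes against 744 and 1111 CPM in tumors 2 and 3, and the part of that RNA in the cell cycle values was not tested. Of 4 matrix genes 0 were called by edgeR (1 lower when p was not adjusted, 1 lower by DESeq2), and the blocked fit called Mmp14 and Timp2 higher and Fn1 lower, beside 8.4% and 10.1% of all genes. The comparator also held RNA of 8 fibroblast and perivascular genes, at 2995, 760 and 52.5 CPM against 106, 0 and 8.22 CPM in the C1q macrophages tested, and its part in these differences was not tested. Mmp12, the macrophage elastase, stood at 274, 233 and 53.5 CPM in all C1q macrophages and was lowest in tumor 3.

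The 14 genes that were lower in C1q macrophages included surface receptors and signaling genes. The cells on the other side held neutrophil genes as well, 10 of which summed to 401, 13645 and 801 CPM in tumors 1, 2 and 3, against 96.4, 65.1 and 90.4 CPM in C1q macrophages. S100a8 and S100a9, the 2 of these that were tested, had a median log2 fold change of -6.69 and were not called (2 lower when p was not adjusted, 1 by DESeq2, 2 with the block), beside 8.76%, 1.52% and 10.1% of all genes. The part of that RNA in the lower genes was not tested. Clec4e, or Mincle, a receptor for mycobacterial glycolipid and for products of dead cells, was at 40.1, 0 and 16.4 CPM against 322, 238 and 315 CPM. It fell by 3.50 ± 0.64 (SE) on the log2 scale, with an adjusted p of 0.0301 by edgeR's quasi-likelihood test with Benjamini-Hochberg adjustment (3 of 3 tumors). The C1q macrophages of tumor 2 held no UMI of it. Napsa, an aspartic protease, was at 106, 72.4 and 49.3 CPM against 447, 348 and 236 CPM, and fell by 2.10 on the log2 scale. Beside Il1b and Ier2, the other genes were Dusp16, Cd300ld, Stap1, Mbp, Gcnt2, Traf1, Pbxip1, Arhgef1, Pim1 and Nfkbiz, with log2 fold changes from -2.38 for Dusp16 to -1.31 for Nfkbiz. Without tumor 1, Il1b and Clec4e were the 2 still called, and all 14 calls were lost without tumor 2 or without tumor 3.

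Genes of circulating monocytes were not called by the unblocked test. Of 6 genes of the nonclassical list 6 had negative log2 fold changes, with a median of -2.13, and 0 were called by edgeR (4 lower when p was not adjusted, 2 by DESeq2, 5 with the block), beside 0.626% of all genes lower (8.76%, 1.52% and 10.1%). Cd300e, a receptor of patrolling monocytes, was at 80.3, 268 and 197 CPM against 293, 219.6 and 348 CPM, so in tumor 2 the C1q macrophages held more of it. Ccr2, which brings classical monocytes out of the marrow, was at 159, 0 and 57.5 CPM against 358, 229 and 105 CPM. To describe subsets, 279, 12 and 16 of the other cells with 2 or more genes of the nonclassical list and fewer than 2 of the classical list formed a nonclassical gate, and 91, 6 and 3 cells with the reverse a classical gate. Genes of those lists are not compared with the gates they chose. Apoe was at 58.3, 467 and 0 CPM in the classical and 304, 1082 and 173 CPM in the nonclassical gate, against 11229, 29189 and 14253 CPM in all C1q macrophages. Vcam1 was at 3.12, 0 and 0 CPM in the classical and 30.7, 0 and 0 CPM in the nonclassical gate, near 0 in both. Fcgr4, an Fc receptor that is high on nonclassical monocytes, was at 197, 669 and 351 CPM in C1q macrophages, 33.3, 84.8 and 0 CPM in the classical gate and 1550.0, 1635 and 1261 CPM in the nonclassical gate, so C1q macrophages lay between the gates in every tumor. The gates of tumors 2 and 3 hold few cells, and these levels are a description with no test.

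**Figure D3:**
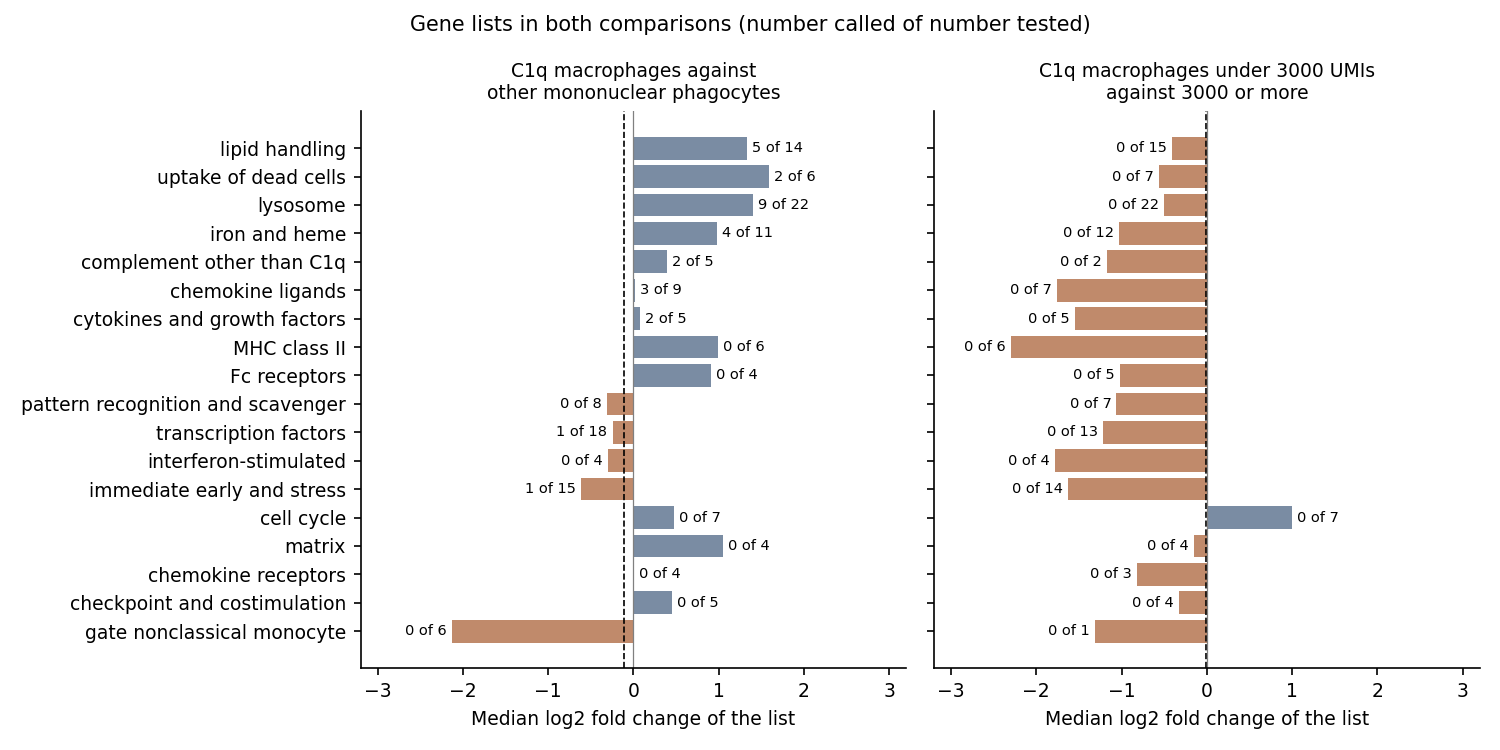
Median log2 fold change of each gene list (horizontal axis) for C1q macrophages against other mononuclear phagocytes and for shallow against deep C1q macrophages, with the number called of the number tested beside each bar. The dashed line is the median of all genes tested, and lysosome and lipid lists lie right of it in the first panel and left of it in the second.

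Gene lists of known macrophage states were each detected in a part of the C1q macrophages. The shares were not compared with those that uniform cells would give by sampling. To hold depth equal, the deep cells were thinned at random to 3000 UMIs and counted as positive with 2 or more genes of a list. A list modeled on splenic red pulp macrophages (Vcam1, Cd5l, Spic, Slc40a1, Hmox1 and Axl) was positive in 69.4%, 57.1% and 67.6% of the 62, 21 and 37 deep cells of tumors 1, 2 and 3. A list of lipid-associated macrophages (Trem2, Gpnmb, Spp1, Fabp5, Lpl and Cd9) was positive in 61.3%, 52.4% and 59.5%. The list holds Fabp5, which tumor-like cells carried as often. Both lists were positive in 48.4%, 47.6% and 43.2% of deep cells, where the product of the single shares is 42.5%, 29.9% and 40.2%. With 3 genes asked for, both were positive in 24.2%, 33.3% and 27.0%, where the product is 17.4%, 19.0% and 14.9%, and the excess was not tested. Among the deep cells of the other mononuclear phagocytes (477, 17 and 21) the red pulp-like share was 6.71%, 17.6% and 14.3% and the lipid-associated share 17.8%, 41.2% and 47.6%, and intervals of the classes overlapped for the lipid-associated list in tumors 2 and 3 and for the red pulp-like list in tumor 2. Cells with lymphoid or tumor genes had been left out of these others, whereas 13, 7 and 21 such cells were among the deep C1q macrophages. Without them, a choice made after the data were seen, the red pulp-like share of C1q macrophages was 71.4%, 57.1% and 68.75% and the lipid-associated share 65.3%, 57.1% and 8 of 16 cells, and the same intervals overlapped. With 3 genes asked for, no C1q macrophages left out and the others filtered as before, the red pulp-like share was 37.1%, 57.1% and 45.9% of C1q macrophages against 1.47%, 0 and 4.76% of the others, with no overlap of intervals in any tumor. The lipid-associated share was then 46.8%, 33.3% and 32.4% against 2.52%, 11.8% and 4.76%, and intervals overlapped in tumors 2 and 3.

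Other lists varied over the tumors. MHC class II was positive in 85.5% of deep C1q macrophages of tumor 1 (95% exact interval 74.2 to 93.1) and 75.7% of tumor 3 (58.8 to 88.2), against 19.0% of tumor 2 (5.45 to 41.9), whose interval did not overlap the others. A monocytic list (Ccr2, Ly6c2, Plac8, Il1b, Vcan and F13a1) was positive in 22.6% of tumor 1 (12.9 to 35.0), 24.3% of tumor 3 (11.8 to 41.2) and 0 of the 21 cells of tumor 2, for which the interval reaches 16.1% and overlaps the others. With 3 genes asked for it was positive in 12.9% of tumor 1 and 2.70% of tumor 3. In tumor 1, 14 of 14 monocytic cells were also positive for MHC class II, and in tumor 3, 8 of 9, where most deep cells were. A perivascular list (Mrc1, Cd163, Lyve1, Folr2, Cbr2 and Pf4) was positive in 8.06%, 4.76% and 29.7%, and with 3 genes in 0, 0 and 8.11%. With 2 genes tumor 3 was the highest there, with intervals that overlapped, and Pf4, a platelet chemokine also made by resident macrophages, stood at 80.6, 44.02 and 602 CPM over all C1q macrophages of tumors 1, 2 and 3. Cell cycle genes were positive in 12.9%, 57.1% and 73.0%, and in 4.40%, 82.4% and 81.0% of the other deep mononuclear phagocytes, so tumor 1 was low in either class.

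**Figure D4:**
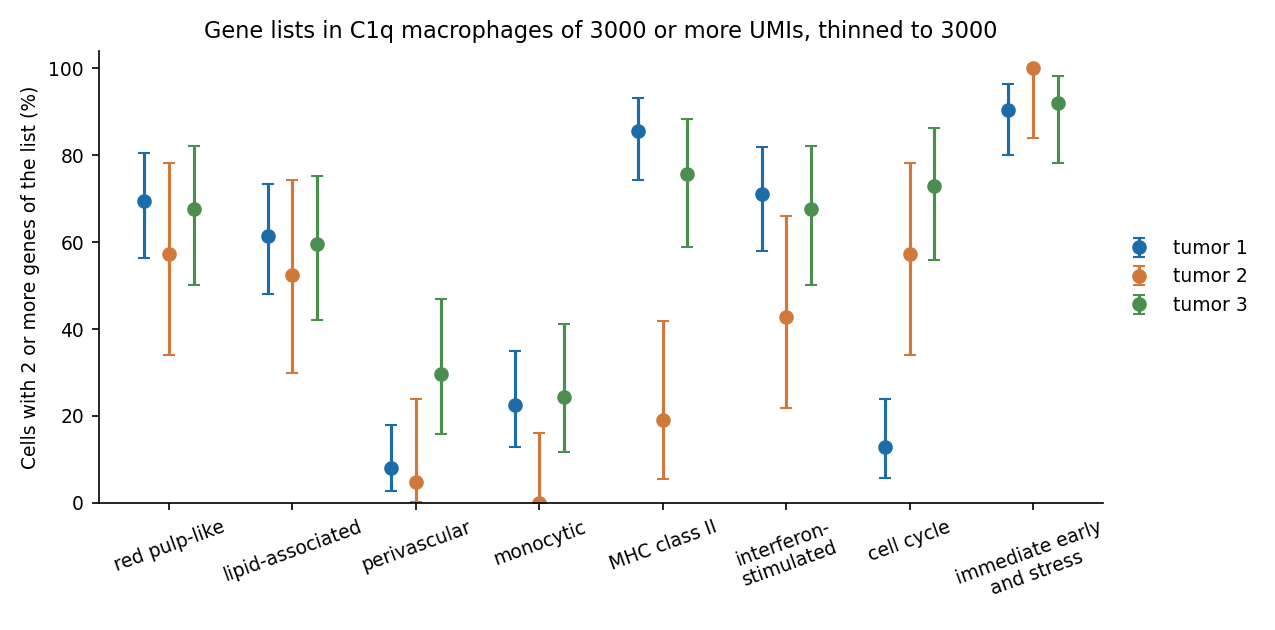
Percent of C1q macrophages with 3000 or more UMIs, thinned to 3000, that held 2 or more genes of each list (vertical axis), by tumor. Points are shares of 62, 21 and 37 cells and bars 95% exact binomial intervals, and MHC class II is at 85.5%, 19.0% and 75.7%.

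Shallow and deep C1q macrophages were compared within the same tumors, as cells under 3000 UMIs against those with more. The test called no gene. As CPM, Apoe and Cd63 differed between the depths in a direction that was not the same in all tumors. Cd74, H2-Aa, Nfkbia and Srgn had smaller values in the shallow than in the deep cells of each tumor, and summed tumor genes had larger ones. Of 1781 genes tested, 0 were called by edgeR's quasi-likelihood test (0% in either direction), with 94 (5.28%) and 158 (8.87%) past the threshold when p was not adjusted, and DESeq2 called 0 higher and 4 lower (0.225%). With the block, 3 genes were higher (0.168%) and 5 lower (0.281%).

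Apoe stood at 18923, 10046 and 12839 CPM in the shallow and 10916, 32575 and 14439.6 CPM in the deep cells of tumors 1, 2 and 3, and Cd63 at 2678, 469 and 1235 CPM and 1181, 1279.6 and 689 CPM. Apoe overlapped between the depths, as did Cd63, and neither went the same way in all tumors. Cd74 and H2-Aa, given next, overlapped over the tumors as well but were smaller in the shallow cells of each. Cd74 was at 2612, 556 and 1149 CPM in the shallow and 11071, 1709.6 and 8568 CPM in the deep cells, a log2 fold change of -2.29 ± 0.76 (SE), and passed with the block (adjusted p = 0.0234, edgeR's test, 3 of 3 tumors). H2-Aa went along, at 724, 351 and 603 CPM and 4972, 679 and 3466 CPM (log2 fold change -2.47 ± 0.68 (SE)), and was called with the block as well. All 6 MHC class II genes tested had negative log2 fold changes, with a median of -2.29 against -0.01 over all genes. Nfkbia, the inhibitor that NF-kappaB induces against itself, was at 65.9, 29.3 and 28.7 CPM and 344, 632 and 273 CPM (log2 fold change -3.32 ± 0.62 (SE)). Srgn, a proteoglycan of secretory granules, was at 154, 58.6 and 86.2 CPM and 682, 461 and 359.9 CPM (log2 fold change -2.35 ± 0.50 (SE)), and both were called with the block and by DESeq2. Log2 fold changes of immediate early genes were negative in 14 of 14, with a median of -1.63, iron and heme genes in 12 of 12, with a median of -1.03, and transcription factors in 13 of 13, with a median of -1.22. These lists were not alone, as 7 of 7 chemokine ligands, 5 of 5 Fc receptors and 4 of 4 interferon-stimulated genes were negative too. By contrast, 7 of 7 cell cycle genes and 3 of 3 tumor genes were positive. The lists for lipid (-0.41) and lysosome (-0.50) lay nearer to the median of all genes.

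RNA of tumor cells stood out in the shallow cells. Stmn2, a tubulin-binding protein of neurons and neuroblasts, was at 87.8, 674 and 718 CPM in shallow and 15.2, 72.5 and 201 CPM in deep C1q macrophages, a log2 fold change of 2.30 ± 0.93 (SE) that passed with the block (adjusted p = 0.0465, edgeR's test, 3 of 3 tumors) and when low counts were not filtered. The 14 tumor genes summed to 351, 2460 and 2843 CPM in shallow cells and 59.8, 440 and 883 CPM in deep cells. Their part in the differences between depths was not tested. AY036118, a locus annotated over ribosomal RNA repeats, was at 1712, 1084 and 1924 CPM and 556, 243 and 583 CPM, a log2 fold change of 1.71 ± 0.42 (SE), and was called with the block alone. Erythroid genes summed to 8978, 117 and 115 CPM in shallow and 4145, 25.9 and 68.2 CPM in deep cells of tumors 1, 2 and 3. Fibroblast and perivascular genes summed to 615, 29.3 and 57.4 CPM in shallow and 74.1, 249 and 22.7 CPM in deep cells. The part of either set was not tested. Of 7 cell cycle genes tested 7 had a positive log2 fold change, with a median of 0.998. With the cells holding lymphoid or tumor genes left out, 0 genes were called by edgeR's test, as with all members (21 and 62 when p was not adjusted).

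Markers of other cell types were present in the C1q macrophages at levels that differed by tumor, and their part in the results was not tested. Of 14 tumor genes, 12, 14 and 14 had a UMI, with summed levels of 71.2, 744 and 1111 CPM in tumors 1, 2 and 3. Stmn2 or Uchl1 was the most plentiful, and Dbh and Chga were at 0 in tumor 1. Erythroid genes, 5, 2 and 4 of 6, summed to 4333, 39.6 and 73.6 CPM, with Hbb-bs leading in tumor 1. T and NK genes, 10, 1 and 2 of 10, summed to 116, 8.80 and 6.69 CPM, led by Gzma in tumor 1, and Cd3e, Cd3d and Cd3g were at 0 in tumors 2 and 3. B and plasma cell genes, 7, 2 and 3 of 9, summed to 101, 150 and 218 CPM, led by Ighm, and Ms4a1 and Pax5 were at 0 in all 3. Genes of plasmacytoid dendritic cells, 6, 1 and 3 of 6, summed to 184, 189 and 288 CPM, led by Tcf4, and Siglech, which defines them, was at 0 in tumor 2. Genes of conventional dendritic cells, 5, 2 and 2 of 7, summed to 21.4, 30.8 and 36.8 CPM, led by Ccr7 or Fscn1, and Zbtb46 and Cd209a, which define that lineage, were at 0 in all 3. Neutrophil genes, 8, 3 and 3 of 10, summed to 94.3, 52.8 and 73.6 CPM, led by Csf3r, and Ngp and Ltf were at 0. In the comparator of tumor 2 they summed to 13645 CPM, led by S100a9. Endothelial genes, 7, 8 and 5 of 8, summed to 89.2, 220.1 and 80.3 CPM, led by Pecam1, and Cldn5 was at 0 in tumors 1 and 3. Fibroblast and perivascular genes, 8, 5 and 4 of 8, summed to 95.2, 216 and 26.8 CPM, led by Col3a1, Rgs5 and Dcn in turn, and Pdgfrb and Lum were at 0 in tumors 2 and 3.

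The share of cells with an Apoe UMI was largest in C1q macrophages at equal depth as well. After thinning each cell to 500 UMIs, Apoe was detected in 73.3, 60.98 and 79.3% of C1q macrophages of tumors 1, 2 and 3, in 7.35, 29.03 and 26.4% of the other mononuclear phagocytes and in 5.35, 5.48 and 7.19% of tumor-like cells, which should lack it and set the background of free RNA. Ms4a7 was detected in 37.6, 21.95 and 41.4%, 1.61, 3.23 and 3.77% and 0.412, 0 and 0.587%, in that order of classes, and 0 of 913 tumor-like cells in tumor 2 allow a share of up to 0.329%. Vcam1 was detected in 23.8, 31.7 and 13.8% of C1q macrophages and in 0.412, 0.876 and 0.734% of tumor-like cells. Each of these shares in C1q macrophages lay above the background of its tumor. Among C1q macrophages without lymphoid or tumor genes, chosen after the data were seen to match the other phagocytes, Apoe was detected in 75.9, 60.7 and 78.6%, Ms4a7 in 37.9, 21.4 and 42.9% and Vcam1 in 26.4, 35.7 and 7.14%, the last being 2 of 28 cells. Cd63 reached 51.5, 26.8 and 36.2%, against 6.996, 8.87 and 9.88% in tumor-like cells and 5.02, 3.23 and 11.3% in the other phagocytes. The other phagocytes thus lay below tumor-like cells in tumors 1 and 2 and above them in tumor 3. As a level Cd63 stood at 11.3, 0 and 0 CPM in the B cells of tumors 1, 2 and 3. Whether tumor-like cells make Cd63 was not tested, so they set no background of free RNA for it. Trem2 was found in 26.7, 7.32 and 12.1% of C1q macrophages and 0, 0.219 and 0.245% of tumor-like cells, where 0 of 243 cells in tumor 1 allow a share of up to 1.23%. Fabp5 was detected in 45.5, 65.9 and 46.6% of C1q macrophages, 7.53, 35.5 and 39.6% of the other phagocytes and 39.9, 59.8 and 59.1% of tumor-like cells. Whether tumor-like cells make it was not tested, so they set no background of free RNA for this gene. In tumor 1 it was detected in 2.12% of 189 B cells. As a level it stood at 48.2, 1314 and 2307 CPM in the 189, 11 and 3 B cells of tumors 1, 2 and 3. Before thinning, the median depth was 1464, 1587 and 1835 UMIs in tumor-like cells and 7418, 3105 and 2420 UMIs in the other phagocytes, and Apoe was found in 84.2, 70.7 and 87.9% of the C1q macrophages.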

How the data were processed

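Whole tumors of 3 mice were profiled with 10x 3′ libraries. The raw tables hold UMI counts per gene and barcode as the authors deposited them, from Cell Ranger 3.1.0 on mm10 per the labels. The values the authors deposited as normalized are natural log (ln) values of corrected counts plus 1, for the cells they kept, with Seurat 3.1.5 named in the labels. The totals of the corrected counts span a narrower range than the raw totals. The authors removed doublets before deposit and none were removed further. Tumors 1 and 2 shared 8 barcodes, 1 and 3 shared 1 and 2 and 3 shared 8, with 0 shared among C1q macrophages.

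The members and gene lists were chosen with earlier results of these data known. All values here come from raw counts. Cells were summed per tumor and class, with at least 10 cells a sum, and cells with 2 or more of 11 lymphoid genes or 3 or more of 10 tumor genes were left out of the comparison with other mononuclear phagocytes. Genes passing filterByExpr were tested in edgeR 4.0.16 (R 4.3.3) by its quasi-likelihood test with TMM factors. Benjamini-Hochberg adjustment covered every gene tested in a comparison, at a threshold of 0.05. The genes of the selection, and in the comparison with other phagocytes those of the exclusion lists, count in library sizes and were not tested. Levels are CPM of all UMIs of a sum, whereas fold changes come from the TMM-scaled fit, so the pair can differ slightly. The paired classes come from the same animal, and the deviations from each class mean over 2237 genes correlated at 0.764, 0.370 and 0.433 within tumors 1, 2 and 3, against -0.564 to 0.230 between tumors. The design did not block by tumor, and the blocked fit was an alternative, as were DESeq2 1.42.0, its size factors, no filter on counts, the corrected counts, other C1q and depth limits, deep cells alone, a comparator without C1q UMIs, no exclusion of cells, and leaving out each tumor.

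Named genes are the markers, the 10 largest changes either way among called genes (same sign in 3 of 3 tumors, the higher class averaging 50 CPM or more) and the 4 genes of each list with the highest level in C1q macrophages. Other genes named beside them were chosen after their values were seen. Exact binomial intervals (95%) and floors for a count of 0 (3 counts) cover counting error only. Coordinates are from GENCODE M21. Thinning and intervals used Python 3.11.15, NumPy 2.4.6, SciPy 1.17.1 and pandas 2.3.3, and matplotlib 3.10.9 drew the plots.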

Additional observations from a re-analysis of the deposited data

Results flagged for a closer look

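The barcodes that the authors removed, which enter no comparison here, also held cells that met the gene criteria for C1q macrophages. They are listed because each count passes the limit that a count of 0 allows, a low bar that any count over 3 passes. There were 11 of 1343 removed barcodes in tumor 1 (0.819%, 95% exact interval 0.410 to 1.46, limit for 0 counts 0.223%), 7 of 3106 in tumor 2 (0.225%, 0.0907 to 0.464, limit 0.0966%) and 26 of 3523 in tumor 3 (0.738%, 0.483 to 1.08, limit 0.0852%). Their median depth was 7468, 4664 and 12314 UMIs and their median mitochondrial share 20.9%, 27.3% and 9.32%. Apoe stood at 13544, 26791 and 26141 CPM in their sums. In tumors 1, 2 and 3, 6, 5 and 9 of them had at least 20% mitochondrial UMIs, 1, 4 and 10 held 3 or more tumor genes, and 3, 0 and 11 were deeper than the deepest kept cell.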

How the results depend on the processing

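No gene called in the main comparison changed sign in an alternative that tested it. Of the 67, 13 were not tested with corrected counts, 8 with deep cells alone, and 1 each with the stricter C1q criterion and with a comparator free of C1q UMIs. For C1q macrophages against other mononuclear phagocytes, where the main counts were 53 higher and 14 lower, DESeq2 gave 83 and 34, no filter on counts 134 and 192, the block 188 and 225, and no exclusion of cells 130 and 27. The main fit, DESeq2 and the block tested 2237 genes, against 16261 with no filter and 4815 with no exclusion. The lower count was also 8 with DESeq2 size factors, 38 with corrected counts, 35 with deep cells alone and 22 with a comparator free of C1q UMIs. Leaving out 1 tumor gave 5 to 30 higher and 0 to 10 lower (0, 3 and 10). For shallow against deep cells, where edgeR called 0 of 1781 genes either way, no filter gave 12 higher and 124 lower of 13919. The block gave 3 and 5, corrected counts 6 higher of 745, and DESeq2 4 lower. Of deep cells, 46.7% were red pulp-like, 37.5% lipid-associated, 34.4% interferon-stimulated and 87.8% immediate early positive (means over tumors) when 3 genes were asked for. The perivascular and monocytic means were 2.70% and 5.20% then, against 14.2% and 15.6%. Leaving out cells with lymphoid or tumor genes, an alternative added after seeing the data, moved no list or detection mean by as much as the spread over tumors. At 1000 UMIs detection was 89.7% for C1qa, 87.6% for C1qc, 45.4% for Ms4a7 and 34.2% for Vcam1. That depth also dropped 27 of the 101 C1q macrophages of tumor 1, so both depth and cells changed. The cause of these changes was not tested.

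Leaving out a tumor leaves 2 sums a class. The block changed no call other than by adding genes. The classes were made from other genes of the same cells, so cell type and the genes tested are not independent. Sums of 28 cells limit genes of low level, and a count of 0 there does not show absence.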

Other observations

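Further genes of the C1q macrophages varied several-fold over the tumors, as levels with no test. The 3 named here were chosen after their values were seen, because they varied. Fn1, the matrix protein fibronectin, stood at 77.2, 17.6 and 375 CPM in tumors 1, 2 and 3, highest in tumor 3 and lowest in tumor 2. Egr1, an immediate early factor, stood at 56.6, 506 and 56.9 CPM, with tumor 2 far above the rest. Cxcl13, the chemokine that draws B cells into follicles, stood at 0, 145 and 191 CPM and had no UMI in tumor 1. The levels of C1qa, C1qb and C1qc, by contrast, kept within narrow bounds over the same cells, but they had a part in choosing them.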
